A study of Homo sapiens with 13 samples.

Results

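The comparison set the library from EZH2 knockdown (siEZH2) directly against the library from EED knockdown (siEED), which are 2 of the 13 libraries of the series. EZH2 and EED are subunits of the same complex, so the question was which genes separate the knockdown of its enzyme from the knockdown of its scaffold. All 15786 genes with a mean FPKM (a level corrected for transcript length and for library size) of at least 0.5 over the 13 libraries entered, and 609 of them (3.86%) lay at least 2-fold apart. LNCaP-abl, a subline of the prostate cancer line LNCaP that grows without androgen, was kept in medium with 10% charcoal-stripped serum, at passages 53 to 60. Cells received a pool of siRNAs against EZH2 or against EED and were harvested after 72 h, as were the control siRNA library and the 10 knockdowns of other factors (SMARCA4, RAD21, CTCF, KDM1A, FOXA1, FOXM1, BRCA1, BRCA2 and the long noncoding RNAs MALAT1 and PCAT1) that make up the other 11. The groups had 1 library each and no replicates, so no difference could be tested and every value describes these libraries. Read depth is unknown because the files hold no counts.

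Polycomb repressive complex 2 (PRC2) places methyl groups on lysine 27 of histone H3, a mark of silenced genes. EZH2 is its catalytic subunit, with EZH1 as a less active relative, while EED binds the finished mark and holds the enzyme together with SUZ12. Both EED and SUZ12 are needed for the methylation, and EZH2 has also been reported to act outside the complex, as an activator, in castration-resistant prostate cancer cells.

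Differences are siEZH2 minus siEED on the log2(FPKM + 1) scale, which understates differences of genes at low FPKM, and 2-fold means a difference of 1. In siEZH2, 166 genes were at least 2-fold higher than in siEED (1.05% of the genes) and 443 were at least 2-fold lower (2.81%). Most genes were close, with 13536 (85.7%) within 1.5-fold and a median difference of 0.03. The share of all genes higher or lower by any amount was not counted. Counts of higher or lower list members without a threshold therefore have only this median beside them. A smaller pseudocount of 0.1 in place of 1 gave 504 higher and 769 lower genes. Of the 78 pairs that the 13 libraries form, this pair ranked 51st from the fewest 2-fold differences, in a range from 145 to 1405 with a median of 483. siEZH2 differed from the control in 628 genes and siEED in 246, and the library closest to siEZH2 was siSMARCA4, with 242. The plot of both libraries against each other shows genes of cell division and of the GAGE family on the side lower in siEZH2.

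**Figure D1:**
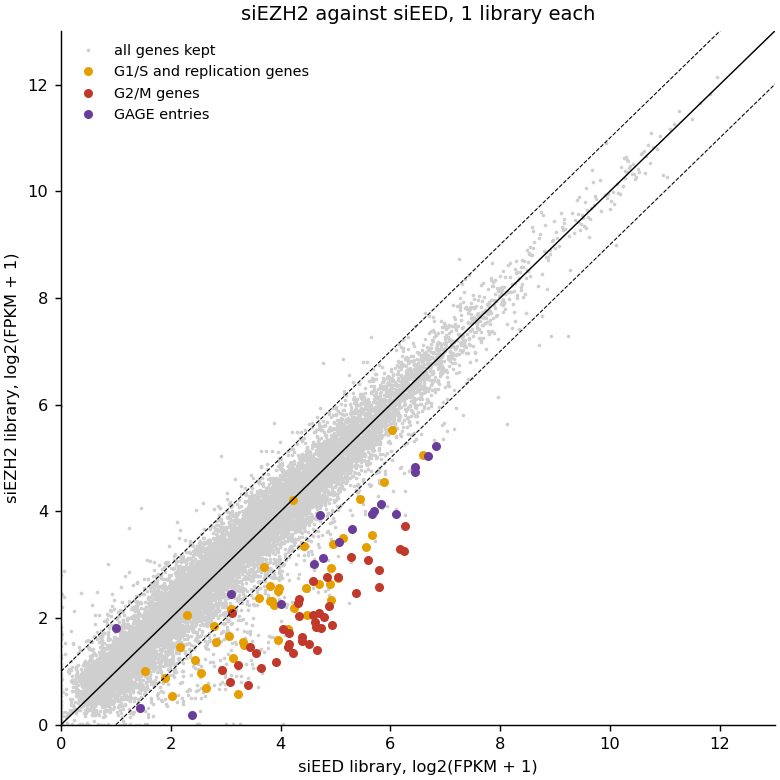
Level of each of the 15786 genes in the siEED library (x axis) and the siEZH2 library (y axis), both as log2(FPKM + 1), 1 library each. The solid line marks equal levels and the dashed lines a 2-fold difference. All 40 G2/M genes (red) and 36 of 44 G1/S genes (orange) lie below the lower dashed line, as do 15 of 18 GAGE entries (purple).

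The targets themselves came first. EZH2 was at 2.20 FPKM in siEZH2 and 16.0 in siEED, and in the other 11 libraries it ranged from 5.32 to 16.4 with a median of 9.52. The siEZH2 value was the lowest of the 13, and the siEED value was next to that of the control, which was the highest at 16.4. EED was at 6.02 FPKM in siEZH2 and 4.13 in siEED, and at 6.06 to 10.3 (median 8.22) in the other 11. siEED was thus the lowest library for EED and siEZH2 the next lowest. Against the control, EZH2 differed by -2.44 in its own knockdown and EED by -0.95 in its own, so the RNA of EED was depleted less. The part of that unequal depletion in the differences below was not tested.

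SUZ12, the other obligate partner, was at 17.8 FPKM in siEZH2 and 25.8 in siEED, with 19.7 to 32.3 (median 26.1) in the other 11. Here siEZH2 was the lowest of the 13 and siEED was beside the median. EZH1, the alternative enzyme, was at 6.09 and 6.34 FPKM (difference -0.05), and so was not higher where EZH2 was depleted. The histone-binding subunits RBBP4 (20.2 and 23.7 FPKM) and RBBP7 (49.6 and 64.1) differed by -0.22 and -0.36. Of the 6 core genes, 5 were lower in siEZH2 and 1, EZH2 itself, was 2-fold lower, with a list median of -0.29.

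**Figure D2:**
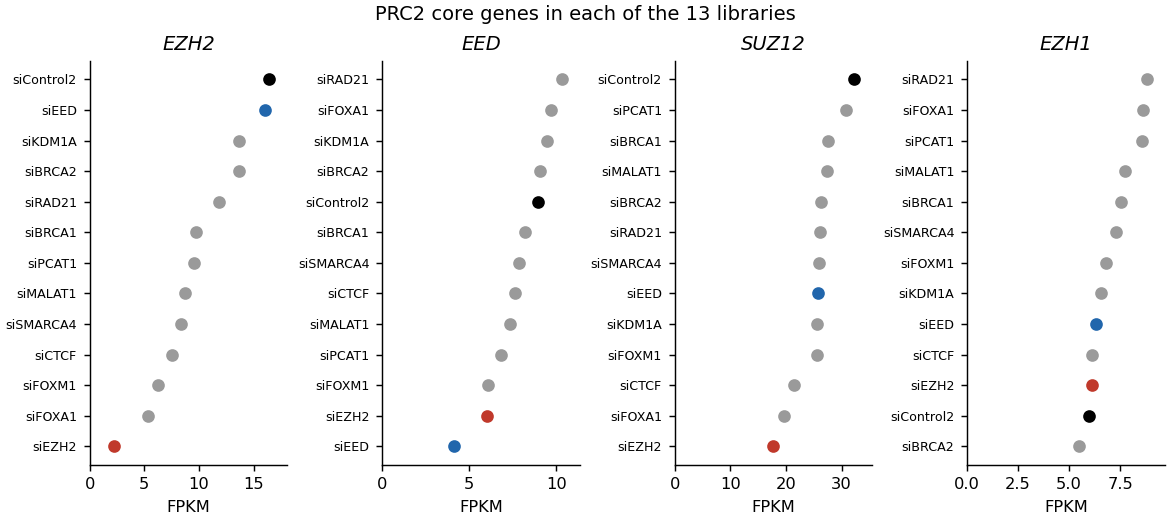
FPKM of EZH2, EED, SUZ12 and EZH1 in each of the 13 libraries, ordered by level within each panel (red siEZH2, blue siEED, black control, gray the 10 other knockdowns). EZH2 separates the pair from 2.20 to 16.0 FPKM, whereas both lie at the low end for EED and side by side within the range for EZH1.

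The accessory subunits, which steer PRC2 to its sites, were close in both libraries, with a median of -0.06 over 8 genes and none 2-fold apart. PHF19, a subunit that reads histone H3 marks, differed most, at 2.47 FPKM in siEZH2 and 4.70 in siEED, within the 1.70 to 5.62 of the other 11. JARID2 (8.09 and 7.72 FPKM), AEBP2 (6.10 and 5.78) and MTF2 (8.98 and 8.91) differed by 0.06, 0.07 and 0.01. LCOR (5.92 and 5.48 FPKM, 0.09), LCORL (6.997 and 8.10, -0.19), C10orf12 (3.81 and 4.60, -0.22) and C17orf96 (0.703 and 0.866, -0.13) were likewise near each other. The 19 PRC1 subunits, which read the mark that PRC2 writes, had a median of -0.02 with none 2-fold apart. Among them BMI1, a PRC1 core subunit, was at 11.05 FPKM in siEZH2 and 19.9 in siEED, the highest of the 13. CBX2, a chromodomain subunit of PRC1, was at 4.72 and 8.71 FPKM, and BCOR, a subunit of a variant PRC1, was at 20.3 and 13.1, the siEED value being the lowest of the 13.

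Of the 11 genes for enzymes that remove the lysine 27 mark or write competing marks, 9 were higher in siEZH2, none by 2-fold. Their median was 0.14, against 0.03 over all genes. KDM6B, a lysine 27 demethylase, was at 22.9 FPKM in siEZH2, above all other libraries (14.9 in siEED, and 9.92 to 19.7 in the other 11). WHSC1, which methylates lysine 36, was at 13.3 and 22.1 FPKM.

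The lists with the lowest medians were the G2/M and the G1/S genes of cell division. G2/M genes run the later part of the cell cycle and are made in cycling cells, and all 40 were lower in siEZH2 by 2-fold or more (median -2.62), against 2.81% of all genes. ANLN, which builds the cleavage furrow, was at 1.64 FPKM in siEZH2 and 24.3 in siEED, with 1.56 to 27.5 (median 8.55) in the other 11 (difference -3.26). CDC20, an activator of the anaphase-promoting complex, was at 5.004 and 54.5 FPKM, with 3.998 to 64.5 (median 22.4) in the other 11 (-3.21). Both genes put siEZH2 near the bottom and siEED near the top of the series. In a bulk library, fewer dividing cells and less of these RNAs per cell cannot be told apart.

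PLK1, the polo-like kinase of mitosis, was at 2.67 FPKM in siEZH2 and 29.5 in siEED. In the other libraries it was at 2.41 in siFOXA1, 2.87 in siFOXM1, 4.56 in siCTCF, 7.09 in siSMARCA4, 11.1 in siPCAT1, 11.7 in siMALAT1, 11.9 in siRAD21, 15.7 in siKDM1A, 15.9 in siBRCA1, 28.2 in siBRCA2 and 36.3 in the control. The siEZH2 value therefore stood with the FOXA1 and FOXM1 knockdowns, and the siEED value with the control and the BRCA2 knockdown. CCNB1, the mitotic cyclin, was at 12.2 and 76.2 FPKM (6.79 to 73.3 in the other 11), and siEED was the highest of the 13. CDK1, its kinase partner, was at 8.52 and 74.9 FPKM (9.44 to 91.5), and siEZH2 was the lowest of the 13.

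Further genes among the most negative differences served the same stage. KIF2C, a microtubule depolymerase at centromeres, was at 1.86 and 22.0 FPKM, and NDC80, a kinetochore protein, at 1.51 and 17.2. BIRC5, a subunit of the chromosomal passenger complex, was at 2.50 and 25.6 FPKM, NUSAP1, a spindle protein, at 4.52 and 40.6, and UBE2C, a ubiquitin-conjugating enzyme of anaphase, at 6.46 and 54.6. PTTG1, the securin that restrains sister separation, was at 8.77 and 71.6 FPKM, and TOP2A, the topoisomerase that untangles chromosomes, at 2.58 and 24.1. DLGAP5 (1.55 and 17.6 FPKM), TROAP (1.96 and 19.9) and CDCA3 (3.65 and 28.3) completed the group. In every one of these 10 genes siEZH2 lay below and siEED above the median of the other 11. These positions were largely fixed by the choice of genes. CDCA3 was chosen for lying on opposite sides of that median, and the others for their large negative differences.

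Across the G2/M list, siEZH2 was below the median of the other 11 for 40 of 40 genes and siEED above it for 40 of 40. Such positions were not counted over all genes. The median distance was -1.51 for siEZH2 and 1.01 for siEED, so part of the gap lay on each side of a typical library. For comparison, the median distance of the control was 1.35, of siFOXA1 -1.80 and of siFOXM1 -1.77. FOXM1, a transcription factor that drives these genes, was itself at 2.47 FPKM in siEZH2 and 15.6 in siEED (0.474 to 20.1 in the other 11).

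**Figure D3:**
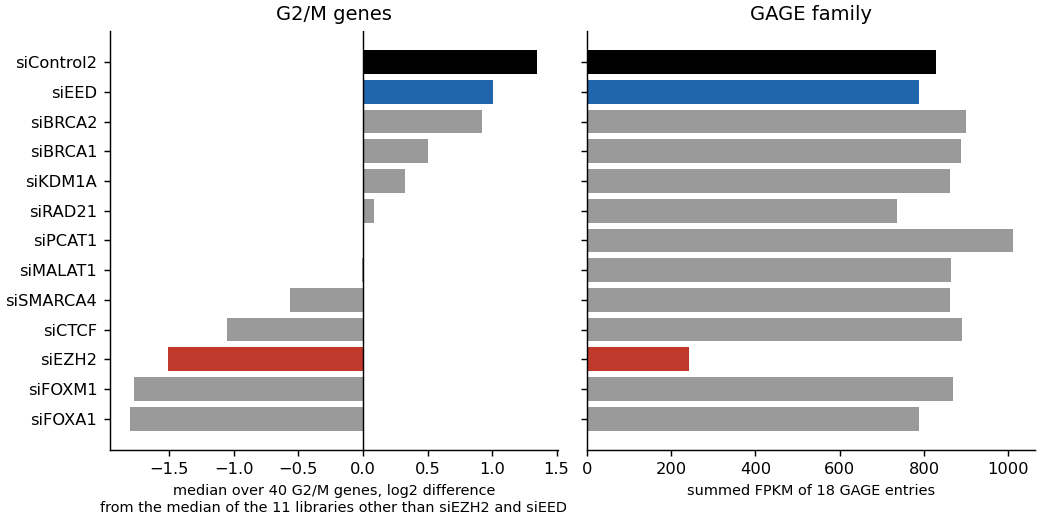
Left, median over the 40 G2/M genes of each library's difference from the median of the 11 libraries other than siEZH2 and siEED (log2 scale). Right, summed FPKM of the 18 GAGE entries, in the same library order. siEZH2 (red) shares its low G2/M position with siFOXM1 and siFOXA1, but is alone in the low GAGE sum, 243 FPKM against 735 to 1012 in the other 11 and 788 in siEED (blue).

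G1/S and replication genes, which copy the DNA, were lower in siEZH2 for 44 of 44, 36 of them by 2-fold or more, and their median was -1.54. CDC45, a subunit of the replicative helicase, was at 0.485 FPKM in siEZH2, the lowest of the 13, and at 8.38 in siEED (0.695 to 13.8 in the other 11). RRM2, which makes deoxynucleotides, was at 4.06 and 29.2 FPKM. CDK2, the kinase that starts replication, was at 4.59 FPKM in siEZH2, the lowest of the 13, and at 24.7 in siEED (7.39 to 25.2 in the other 11). siEZH2 was thus below even the FOXM1 and FOXA1 knockdowns for CDK2, which were at 8.33 and 9.89. CDKN3, a phosphatase of cyclin-dependent kinases, was at 4.68 and 21.7 FPKM. CDK2 and CDKN3 were not on the G1/S list but on that of CDK inhibitors and RB family genes. Of the 14 genes kept on that list, 12 were lower in siEZH2, but only CDK2 and CDKN3 by 2-fold, and the median was -0.26.

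The repair and chromosome structure genes had medians nearer to 0. Of 24 homologous recombination and Fanconi genes, 14 lay 2-fold or more below siEED in siEZH2, and the median was -1.14. RAD51AP1, a homologous recombination factor, was at 1.19 and 10.2 FPKM, and MND1, a strand exchange factor, at 0.741 and 6.64. BRCA1 was at 1.87 FPKM in siEZH2 and 8.16 in siEED, and BRCA2 at 0.393 and 2.71, although neither was the siRNA target here. Of 22 cohesin, condensin and CTCF genes, 11 were lower by 2-fold or more and the median was -1.03. They included the condensin subunit NCAPG (0.879 and 8.67 FPKM) and the cohesin protector CDCA5 (2.39 and 15.5). The 4 division lists together held 130 distinct genes, of which 101 (77.7%) were at least 2-fold lower, and the other 342 of the 443 lower genes were on none of them. The 24 replication-dependent histones had a median of 0.09, with 1 gene 2-fold higher and none 2-fold lower. Whether the values of these histone entries follow replication was not tested.

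Promoters of the division genes are printed to show the letters that many of them share. Sequences are the 100 bases before the start, read 5′ to 3′ on the gene's strand, from the RefSeq promoter table of GRCh38.p14, a build other than that of the expression files. Motifs were searched on both strands as TTTGAA (the cell cycle homology region), CCAAT (the box bound by NF-Y), GCGGGAA (an E2F site) and TGACTCA (an AP-1 site). For G2/M genes, capitals mark TTTGAA and CCAAT on either strand, which overlap each other in none of these windows, although the CCAAT matches of opposite strands in HMMR share bases. CDC20 lies at chr1:43358881-43358980 (+), PLK1 at chr16:23678789-23678888 (+) and HMMR, a spindle protein gene, at chr5:163460532-163460631 (+).
CDC20: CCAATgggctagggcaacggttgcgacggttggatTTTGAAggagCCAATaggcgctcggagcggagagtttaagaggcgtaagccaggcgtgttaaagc
PLK1: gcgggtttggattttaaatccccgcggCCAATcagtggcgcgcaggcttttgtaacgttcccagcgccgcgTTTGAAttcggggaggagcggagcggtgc
HMMR: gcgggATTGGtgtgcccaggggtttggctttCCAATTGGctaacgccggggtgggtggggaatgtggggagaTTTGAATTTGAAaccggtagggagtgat
For G1/S genes, capitals mark GCGGGAA. TYMS, which makes thymidylate, lies at chr18:657553-657652 (+) and GINS2, a helicase subunit gene, at chr16:85688955-85689054 (-).
TYMS: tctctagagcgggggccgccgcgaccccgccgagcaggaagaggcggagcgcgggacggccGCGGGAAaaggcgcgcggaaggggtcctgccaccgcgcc
GINS2: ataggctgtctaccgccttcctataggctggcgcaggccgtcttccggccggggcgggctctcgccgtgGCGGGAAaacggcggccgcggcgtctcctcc
These examples were taken from the genes holding the motifs in that window. HMMR was at 3.06 and 26.8 FPKM, TYMS at 3.16 and 21.4 and GINS2 at 2.49 and 16.5 in siEZH2 and siEED.

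Over the 250 bases before the start, 33 of 40 G2/M genes and 38 of 44 G1/S genes had an entry in the table. TTTGAA was present in 16 of 33 G2/M promoters (48.5%), in 1 of 38 G1/S promoters (2.63%) and in 13.6% of all 27305 promoters of the table. GCGGGAA was present in 5 of 33 (15.2%), in 14 of 38 (36.8%) and in 5.59% respectively. CCAAT was present in 75.8% of G2/M, 50% of G1/S and 33.0% of all promoters, and TGACTCA in none of the G2/M and G1/S promoters and 4.16% of all. Among the 9510 kept genes with an entry, which are 60.2% of those kept and so an incomplete background, the shares were 8.19% for TTTGAA, 8.85% for GCGGGAA, 35.4% for CCAAT and 2.56% for TGACTCA. In the nearest 100 bases, TTTGAA was present in 33.3% of G2/M promoters, no G1/S promoter and 4.64% of all. GCGGGAA was present there in 6.06% of G2/M, 26.3% of G1/S and 2.42% of all promoters, and CCAAT in 60.6%, 42.1% and 18.7%. The lists were defined by function, with earlier results of these data known, and the motifs describe them, not the response to a knockdown. The same check over the 443 lower and 166 higher genes is void, because 278 (62.8%) and 70 (42.2%) of them had an entry.

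Apart from division, the GAGE family separated siEZH2 from every other library. GAGE genes are X-linked cancer-testis genes, normally silent outside germ cells. Of the 18 GAGE entries, 15 were at least 2-fold lower in siEZH2 than in siEED, none was 2-fold higher, and siEZH2 was the lowest of the 13 for 14. Their summed level was 243 FPKM in siEZH2 and 788 in siEED, with 735 to 1012 (median 864) in the other 11. The siEED sum was thus within the range of the other libraries and 3.24 times that of siEZH2. GAGE4 was at 14.4 and 68.0 FPKM (56.0 to 110.2 in the other 11), and GAGE12D at 0.138 and 4.24 (1.97 to 6.16). GAGE2E had the opposite sign, at 2.52 and 1.01 FPKM. The copies are near-identical, so single entries are uncertain where reads were split among them, and the sum over entries is given for that reason. The whole list of 31 cancer-testis antigens kept had a median of -1.14, and 16 of them were 2-fold lower in siEZH2. The 13 antigens outside the GAGE family had a median of -0.16, with 1 gene 2-fold lower and none higher.

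A metabolic and a chromatin gene outside the division lists were also lowest of the 13 in siEZH2. LDHA, which turns pyruvate into lactate, was at 48.6 FPKM in siEZH2 and 279.6 in siEED, with 107 to 411 (median 214) in the other 11 (difference -2.50). CBX1, a heterochromatin protein that binds methylated lysine 9 of histone H3, was at 16.1 and 60.3 FPKM, with 49.4 to 77.3 (median 64.4) in the other 11 (-1.84). For both, siEED lay inside the range of the other libraries and siEZH2 below it. Of 24 hypoxia and glycolysis genes (median -0.31, against 0.03 over all genes), 19 were lower in siEZH2, 3 of them by 2-fold or more. They included PFKFB3, a regulator of glycolysis, at 1.02 and 3.64 FPKM. GAPDH, a glycolytic enzyme often used as a reference, was at 1266 and 2007 FPKM, the lowest of the 13 in siEZH2, while the 16 reference genes had a median of 0.00. UHRF1, which guides DNA methylation to replicated DNA, is also on the G1/S list. It was at 1.92 and 8.99 FPKM, both within the 0.609 to 11.4 of the other 11. The 19 genes for DNA methylation and for lysine 9 of histone H3, which include UHRF1 and CBX1, had a median of -0.07 with 3 lower by 2-fold.

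**Figure D4:**
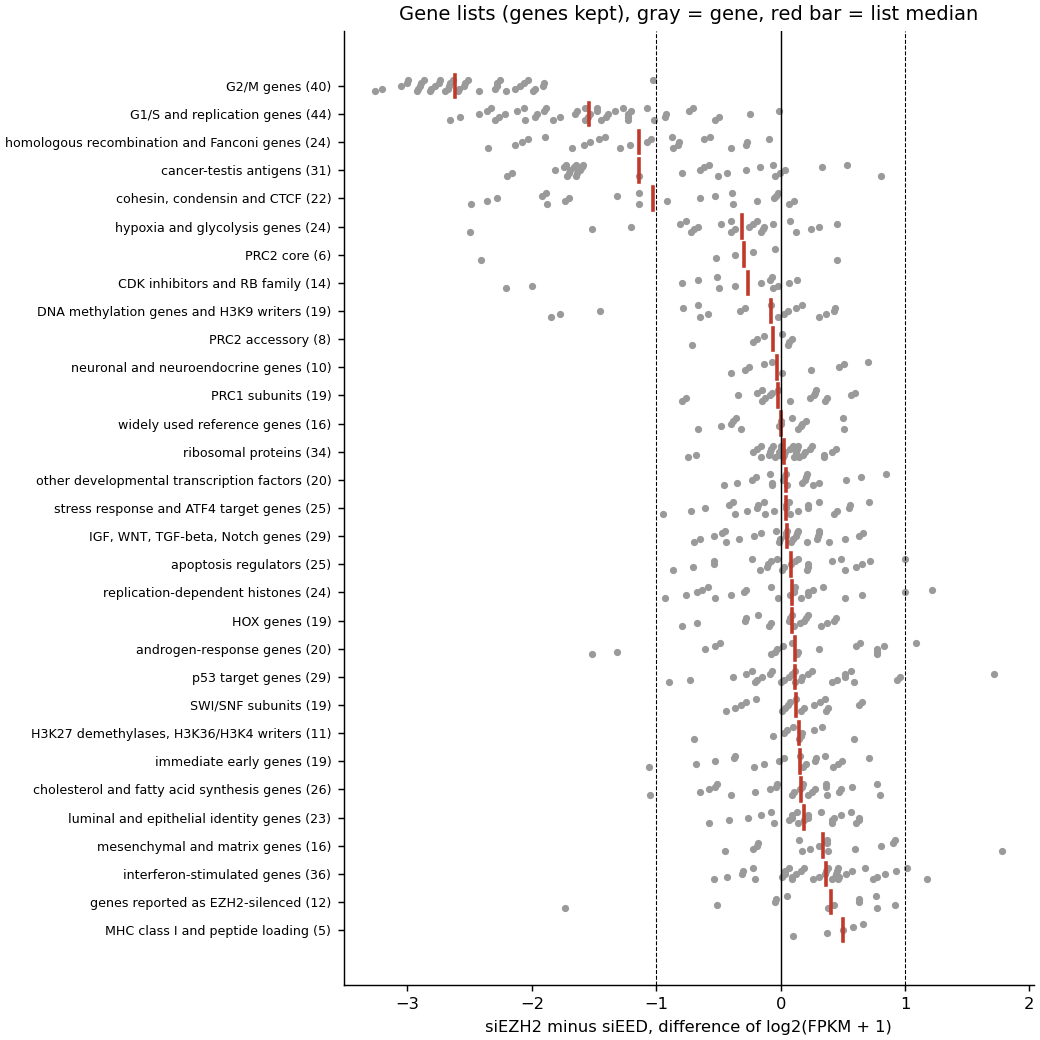
Difference siEZH2 minus siEED on the log2(FPKM + 1) scale for each gene (gray points, spread vertically for visibility) of the 31 lists, with the list median as a red bar and the number of genes kept in parentheses. Medians reach -2.62 for G2/M genes, while no list lies above 0.50 (MHC class I), and the dashed lines mark 2-fold.

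Genes that PRC2 itself is known to silence were next. Of 28 listed genes reported as silenced by EZH2 in epithelial or prostate cells, 12 were expressed enough to be kept, and their median was 0.41. Of these, 8 were higher in siEZH2, none of them by 2-fold, and 4 lower, 1 of them by 2-fold. The list's median distance from the median of the other 11 was 0.15 for siEZH2 and -0.18 for siEED. TIMP2, an inhibitor of matrix proteases, was at 10.3 FPKM in siEZH2 and 4.98 in siEED, the lowest of the 13. siEZH2 was within the range of the other 11 (5.405 to 24.6). MSMB, a secreted prostate protein, went the other way, at 0.675 FPKM in siEZH2 and 4.57 in siEED (0.536 to 15.5 in the other 11, difference -1.73). Of the HOX genes, classical polycomb targets, 19 of 37 listed were kept. The other developmental transcription factors kept were 20 of 50 and the neuronal genes 10 of 27. Listed genes that were not measured or were below the mean of 0.5 FPKM were left out, so members that stayed silent were not compared. The medians of those kept were 0.10, 0.05 and -0.03, with no gene 2-fold apart in the 3 lists. HOXA10 was at 18.1 and 32.0 FPKM, the highest of the 13 in siEED, and HOXB9 at 1.06 and 2.28. IRX3, a homeobox factor, was at 32.1 and 17.4 FPKM, and MEIS3, a HOX cofactor, at 1.16 and 0.3795, the highest and lowest of the 13.

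Among genes higher in siEZH2, SHH, the hedgehog ligand, was at 31.9 FPKM against 6.52 in siEED (difference 2.13). It was at 14.6 in the control and at 3.11 to 11.4 in the 10 other knockdowns, so siEZH2 stood above the whole series and siEED beside the median of 6.97. COL5A2, a fibrillar collagen, was at 49.4 and 13.6 FPKM (1.78), and it was higher still in siRAD21 (51.9), with 5.53 to 28.0 elsewhere. GPNMB, a membrane glycoprotein, was at 12.9 and 3.35 FPKM (3.26 to 22.8 in the other 11). The 16 mesenchymal and matrix genes had a median of 0.34, and 1 of them, COL5A2, was 2-fold higher.

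PRKACB, a catalytic subunit of protein kinase A, separated the pair through siEED. It was at 109 FPKM in siEZH2 and 26.4 in siEED, with 56.7 to 120.1 (median 86.6) in the other 11 (difference 2.01). siEED was the lowest of the 13 and siEZH2 was within the range. PIK3AP1, an adaptor for phosphoinositide 3-kinase, was at 11.6 and 3.47 FPKM, UBA7, which activates the ubiquitin-like ISG15, at 4.97 and 1.13, and C5orf24 at 33.9 and 11.4, all lowest of the 13 in siEED. CRYAB, a small heat shock protein, was at 7.39 and 2.09 FPKM (1.53 to 80.6 in the other 11).

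In a few genes the pair formed both ends of the series. ENDOD1, an endonuclease domain protein, was at 152.9 FPKM in siEZH2 and 49.4 in siEED, with 65.2 to 147.5 in the other 11 (difference 1.61). FTL, the ferritin light chain that stores iron, was at 423 and 150.7 FPKM, with 185 to 374 in the other 11 (1.48). HIST1H3E, a histone H3 gene, was at 24.6 and 10.0 FPKM, with 10.2 to 24.4 in the other 11 (1.22). In all 3, siEZH2 was the highest and siEED the lowest of the 13. TMEM45B was at 93.7 and 37.0 FPKM, OLFM2 at 7.53 and 1.96, TMEM178A at 4.05 and 0.954 and LINC00842 at 5.90 and 1.25, each on opposite sides of the median of the other 11 by at least 1.5-fold.

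Some of the most extreme differences came from entries that were at or near 0 in siEZH2 or siEED. VTRNA1-2, a short vault RNA whose symbol the small RNA filter did not cover, was at 61.8 FPKM in siEZH2 and listed at 0 in siEED (0 to 72.2 in the other 11). PLGLB2 (6.36 and 0.0331 FPKM), FLJ31306 (0.00903 and 7.08) and the ribosomal protein gene RPL21 (0.00855 and 15.4, and 0.00156 in the control) are of this kind, and each was also near 0 in at least 1 of the other 11. BAGE4, at 3.37 and 0.181 FPKM, was low in siEED alone, with 1.68 to 7.96 in the other 11. BAGE5, an entry of the same family, went the other way, with log2(FPKM + 1) values of 0.01 in siEZH2 and 2.52 in siEED (difference -2.51). A lower level of the family in siEED therefore cannot be read from BAGE4. RPL21, PLGLB2 and BAGE4 have near-identical copies, and their values are uncertain.

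Androgen-response genes were compared because LNCaP-abl comes from an androgen-dependent line. SLC45A3, a prostate transporter under androgen control, was at 20.7 FPKM in siEZH2, the highest of the 13, and 9.21 in siEED (difference 1.09), and TMPRSS2, a membrane protease, was at 45.5 and 25.1. FKBP5, a cochaperone, was lower in siEZH2 at 9.63 and 15.2 FPKM, as was CENPN, a centromere protein gene, at 8.12 and 21.7. Of the 20 genes kept, 12 were higher in siEZH2, with 1 at least 2-fold higher, 2 at least 2-fold lower and a median of 0.11. The luminal markers KRT8 (188 and 121 FPKM), KRT18 (159 and 149) and HOXB13 (111.8 and 95.9) were present in both libraries, while KLK3 was near 0 (0.524 and 0.218), as was KLK2 (0.700 and 0.714). The 7 markers of basal, stromal, blood, endothelial and neuroendocrine cells found in the files, of 15 listed, summed to 5.39 FPKM in siEZH2 and 4.03 in siEED.

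Of 36 interferon-stimulated genes, 30 were higher in siEZH2, 2 of them at least 2-fold (against 1.05% of all genes), and none was 2-fold lower. Their median was 0.36, against 0.03 over all genes. siEED was above the median of the other 11 for 5 of the 36 and the lowest of the 13 for 9, but these positions were not counted over all genes. IFITM3, which blocks virus entry, was at 43.9 FPKM in siEZH2 and 18.8 in siEED, with 30.7 to 173 (median 37.1) in the other 11, and its relative IFITM2 at 4.07 and 1.503 (1.81 to 12.4). siEED was below all other libraries for both, and siEZH2 above the median. The list's median distance from the median of the other 11 was -0.13 for siEZH2, -0.49 for siEED and -0.33 for the control. All 5 MHC class I genes kept, of 15 listed, were higher in siEZH2 with none 2-fold apart, and NLRC5, which activates that pathway, was at 1.81 and 0.780 FPKM.

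Stress and immediate early genes included several that were highest in siEED. CYR61, a matrix signalling protein, was at 10.6 FPKM in siEZH2 and 23.0 in siEED, with 3.32 (the control) to 15.6 in the other 11, so both were above the median of 6.01. CHAC1, which degrades glutathione, was at 6.06 and 12.6 FPKM (1.83 to 8.30), and ASNS, asparagine synthetase, at 44.3 and 73.6 (25.4 to 54.0). In these 3 genes siEED was the highest of the 13. Still, the 25 stress genes had a median of 0.05 with none 2-fold apart, and the 19 immediate early genes 0.16 with 1 lower by 2-fold, CYR61.

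Apoptosis regulators and p53 targets had medians of 0.08 over 25 and 0.12 over 29 genes, and 1 p53 target, not reported here, was the only one of either list at least 2-fold apart. MCL1, a survival protein, was at 53.9 FPKM in siEZH2 and 88.2 in siEED, the lowest and the highest of the 13. DDB2, a repair factor, was at 4.66 and 9.54 FPKM, the lowest of the 13 in siEZH2, while XPC, which acts with it in damage recognition, was at 18.9 and 9.39, the lowest in siEED. Lipid synthesis genes had a median of 0.16 over 26, with STARD4, a sterol carrier, at 5.82 and 13.2 FPKM. The SWI/SNF subunits (0.12 over 19), the IGF, WNT, TGF-beta and Notch genes (0.05 over 29) and the ribosomal protein genes (0.03 over 34) had no gene 2-fold apart. RPL21, described above, is not on that list of ribosomal protein genes.

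To see on which side each difference lay, both libraries were set against the median of the other 11. Both distances share that reference, so the counts only describe positions. siEZH2 was at least 2-fold below it for 219 genes (1.39%) and above it for 49 (0.31%), and siEED was below it for 73 genes (0.462%) and above it for 122 (0.773%). Of the 443 genes lower in siEZH2, 135 were 2-fold from the reference in siEZH2 alone, 42 in siEED alone, 42 in both and on opposite sides, and 224 in neither. Of the 166 higher genes, the counts were 23, 35, 4 and 104. With the control as reference, 333 of the lower genes departed in siEZH2 alone and 31 in siEED alone. More of the lower genes thus departed in siEZH2 alone than in siEED alone, and many 2-fold differences were the sum of smaller distances.

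**Figure D5:**
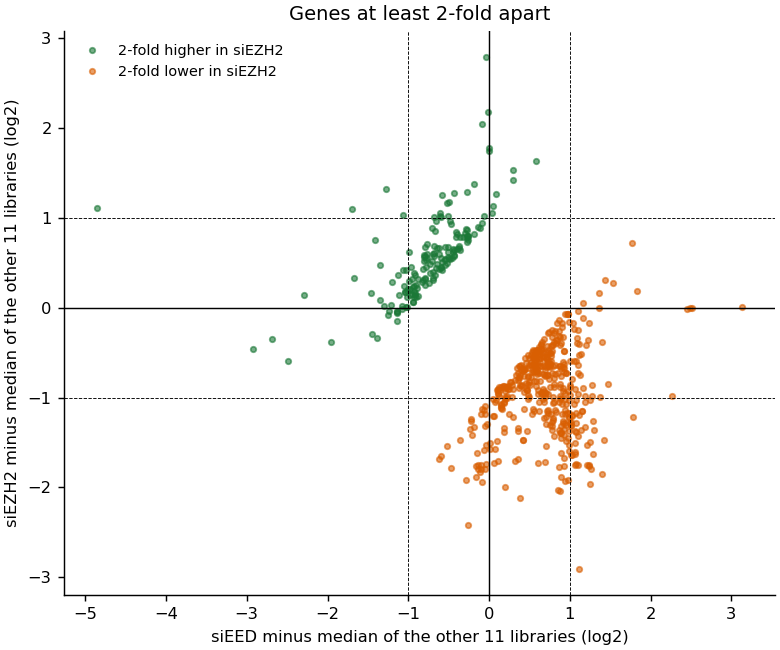
For the 609 genes at least 2-fold apart, distance of siEED (x axis) and of siEZH2 (y axis) from the median of the other 11 libraries, on the log2(FPKM + 1) scale, green for the 166 genes higher and orange for the 443 lower in siEZH2. The dashed lines mark 2-fold, and 224 of the lower genes lie within them on both axes. The empty diagonal band follows from choosing genes 2-fold apart.

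Some genes stood away from the control in both libraries and did not separate them. The values are given side by side because both share the single control. PERP, a desmosome protein, was at 11.7 FPKM in siEZH2, 10.2 in siEED and 32.6 in the control, and both were below the 23.0 to 44.2 of the other 11. HIST1H4E, a histone H4 gene, was at 35.97, 37.9 and 11.3 FPKM, and both were above the 7.505 to 18.1 of the other 11. ATF3, a stress transcription factor, was at 37.8, 49.2 and 8.76 FPKM, and GDF15, a stress cytokine, at 13.3, 12.5 and 4.13. Here the other 11 reached 53.1 and 40.1, with medians of 36.1 and 8.78, and the control was the lowest of them for both genes. TGM3, a transglutaminase, was at 23.0, 29.1 and 5.69 FPKM, with 1.88 to 25.1 (median 7.93) in the other 11. TFF1, a secreted trefoil protein, was at 24.6, 29.6 and 6.88 FPKM, with 1.11 to 29.3 (median 7.38). NPR3, a natriuretic peptide receptor, was at 3.85, 2.92 and 15.3 FPKM, and the control was the highest of the other 11 (median 5.49). VTRNA1-1 was at 13.01 and 12.97 FPKM and listed at 0 in the control, and its median in the other 11 was 0, with a highest value of 11.9. Like VTRNA1-2, it is a vault RNA listed at 0 in some libraries, so its values are uncertain. The remaining siRNA targets were close in the pair: CTCF at 18.9 and 19.6 FPKM, KDM1A at 22.4 and 23.7, SMARCA4 at 44.5 and 39.7, MALAT1 at 15.9 and 14.3 and FOXA1 at 175 and 132, the highest of the 13 in siEZH2.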

How the data were processed

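Per the submitters' processing notes, TopHat and Cufflinks were run on hg19, and no versions are named. For strand use the sources give nothing. The authors deposited 1 file of log2 FPKM values per library, with 22613 entries each. The floor of the deposited log2 values was read as an offset of 0.1, and the sorted values of the 13 libraries differed by at most 0.0562, so they had been brought to a common distribution, a step no label records. Differences in total RNA between libraries therefore cannot be seen. Depth is unknown, and no counting interval is given.

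Values were turned back to FPKM (2 to the power of the value, minus 0.1, with a floor of 0) and compared as log2(FPKM + 1). Genes with a mean of at least 0.5 FPKM over 13 libraries were kept, and 761 entries with small RNA symbols were left out, of which 646 had passed that mean. Host genes of microRNAs stayed in, as did vault RNAs, whose symbols that filter did not cover. No test was run, since each group had 1 library. The calculation was tested on simulated data, and Python 3.11.15 with pandas 2.3.3, numpy 2.4.6 and matplotlib 3.10.9 was used.

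Members and the 31 gene lists were chosen with earlier results of these data known. The genes named are all PRC2 genes, the 15 largest differences on each side with a usable symbol and at least 2 FPKM, up to 4 extreme members per list past 1.5-fold, up to 6 on each side on opposite sides of the other 11, the siRNA targets, and 8 genes alike in both libraries but 2-fold from the control. Not every gene so chosen is printed, and some items are not reported here, among them genes on chromosome 8. The luminal markers, HMMR, TYMS, GINS2, BAGE5 and the genes of the closing observations were named after their values were seen. The reference was GRCh38, and was used for names and promoters only, matched by symbol, with 9510 of 15786 genes in the promoter table and the first listed start taken. Alternatives were another pseudocount, other filters, quantile normalization, centring, small RNAs kept and other references.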

Additional observations from a re-analysis of the deposited data

How the results depend on the processing

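The number of genes at least 2-fold higher in siEZH2 than in siEED (166) became 504 with a pseudocount of 0.1, 77 with a mean of at least 5 FPKM and 275 with small RNAs kept, and the number lower (443) became 769, 266 and stayed within 1.5 times. Without assembly and Ensembl identifiers, an alternative chosen after seeing the data, the higher count was 104. Measured as siEZH2 minus the median of the other 11, the counts were 49 higher and 219 lower, and as that median minus siEED, 73 and 122. Among lower genes, those departing in siEZH2 alone numbered 333 with the control as reference (135 with the median), and those in siEED alone 85 at 1.5-fold (42 at 2-fold). Among higher genes, the 1.5-fold counts were 49 and 83 (23 and 35 at 2-fold). All 31 list medians kept their side of 2-fold with the pseudocount of 0.1, quantile normalization, centring and small RNAs kept. None changed sign there except with centring, where the ribosomal protein median (0.03) passed just below 0 and the reference gene median of 0.00 became negative. For quantile normalization, small RNAs kept and centring, this outcome was largely fixed in advance. The 13 libraries already shared a distribution, the lists hold no small RNA symbols, and centring moved values by only 0.03. At 5 FPKM the homologous recombination median was -0.84 and the cohesin median -0.65, and with no filter the cancer-testis median was -0.65, while 3 small medians changed sign at 5 FPKM. Measured as siEZH2 minus the median of the other 11 and as that median minus siEED, the G1/S median was -0.67 and -0.89, the homologous recombination median -0.52 and -0.61, and the cohesin median -0.61 and -0.39, all inside 2-fold. Under these references 5 and 9 of the 31 medians changed sign. As the median of the other 11 minus siEED, the cancer-testis median was 0.0233, and CBX1 (0.0916), GAGE4 (0.26) and SLC45A3 (-0.0448) changed sign, as did BAGE4 (-0.60) and CYR61 (0.72) as siEZH2 minus that median. The cause was not tested, but these settings each drop 1 library of the pair. No paired analysis was possible because each group had 1 library. Leaving out a replicate was not possible for the same reason.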

Other observations

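Genes that set 1 library of the pair apart from all other 12 were looked for after the values were seen, and those named were chosen from their values. siEZH2 was at least 2-fold below all other 12 libraries for 28 genes, of which 14 were GAGE entries, and above them for 2. siEED was at least 2-fold below all other 12 for 5 genes and above them for 2. At 1.5-fold the numbers were 74 below and 12 above for siEZH2, and 25 below and 19 above for siEED.

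Among the genes low in siEZH2, SEC23A, a coat protein of transport vesicles, was at 15.7 FPKM in siEZH2 and 56.9 in siEED (35.1 to 76.9 in the other 11). AP2M1, an adaptor of clathrin-coated pits, was at 44.6 and 129.7 FPKM (109 to 161), and MRPL20, a mitochondrial ribosomal protein, at 54.9 and 159.5 (129 to 171). NEDD8, a ubiquitin-like modifier, was at 48.3 and 121.7 FPKM (144 to 185), so siEED too was below the other 11. PSMC1, a proteasome subunit, was at 43.3 and 84.9 FPKM (71.4 to 128), and HAUS1, a spindle protein, at 2.26 and 9.82 (6.18 to 13.9). TLE3, a transcriptional corepressor, was highest in siEZH2, at 70.9 FPKM against 43.2 in siEED (19.1 to 43.5).

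Among the genes low in siEED, APOO, a subunit of the complex that shapes mitochondrial cristae, was at 27.7 FPKM in siEZH2 and 11.5 in siEED (24.6 to 32.8 in the other 11). MCU, the mitochondrial calcium channel, was at 19.3 and 7.09 FPKM (9.74 to 32.9), the lowest of the 13 in siEED but by less than 1.5-fold, so it is not among the counted genes. FAM98A was at 33.7 and 14.4 FPKM (25.3 to 41.9), MYH10, a non-muscle myosin, at 34.1 and 13.4 (21.0 to 34.2), and BMPR2, a receptor of bone morphogenetic proteins, at 7.56 and 3.95 (6.78 to 13.2). Subunits of protein kinase A divided between the libraries. The regulatory subunit PRKAR1A was at 84.6 FPKM in siEZH2 and 38.9 in siEED (67.6 to 91.7), low in siEED as PRKACB was, whereas the catalytic subunit PRKACA was at 8.80 and 16.8 (13.8 to 25.8), low in siEZH2.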
